A study of Sus scrofa with 67 samples.

Results

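The ovary of the pig was compared between day 15 and day 9 of the oestrous cycle, with day 0 as the first day of oestrous behaviour. The comparison took every ovary library of day 15, 4 libraries, and every ovary library of day 9, 3 libraries, which are 7 of the 22 ovary libraries and of the 66 libraries in the count table, and it covered all genes. Both groups were crossbred (Landrace × Yorkshire) gilts, young female pigs of similar age that had already cycled, and from each a whole ovary of one side was taken. The study sampled the ovary, the endometrium and the oviduct on 7 days of the cycle. It states 3 gilts per day, so it is unclear whether the 4 libraries of day 15 came from 4 gilts. If they did not, the p-values measure partly technical spread.

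After ovulation the emptied follicles turn into corpora lutea, glands that take up and make cholesterol and convert it into progesterone. In a pig that is not pregnant, prostaglandin F from the uterus ends this function in the second part of the cycle: progesterone output drops, luteal cells die, immune cells enter, the matrix is rebuilt and new follicles grow. Day 9 lies in the phase of working corpora lutea and day 15 around their regression. RNA of a whole ovary mixes luteal, follicular, stromal, vascular and immune cells, so fewer cells of a type and less RNA per cell cannot be told apart.

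The libraries held 11367278 to 12956387 counts on day 9 and 10302683 to 12407729 on day 15, and levels are given as CPM, counts scaled to a common library total after TMM normalization (the trimmed mean of M-values). Ovarian identity held in all 7 libraries: GATA4, a gonadal transcription factor, was at 45.7, 50.1 and 71.1 CPM on day 9 and 65.5, 80.8, 52.3 and 69.3 CPM on day 15, and NR5A1, the transcription factor of steroid-producing cells, at 33.3, 37.4 and 48.1 and 35.8, 53.8, 12.1 and 16.1 CPM. Values are always in the order of the library numbers, 1 to 3 on day 9 and 1 to 4 on day 15.

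The 3 ovaries of day 9 resembled each other, whereas the 4 of day 15 did not. The correlation of log2(CPM + 1) across genes, which are not independent replicates, was 0.977 to 0.990 between day 9 libraries, 0.853 to 0.954 between day 15 libraries and 0.873 to 0.949 between the days. The standard deviation of a gene's log2 level between libraries of a day had a median of 0.21 on day 9 and 0.43 on day 15, and it was above 1 for 0.595% of genes on day 9 and for 14.5% on day 15. The ovary library most like libraries 3 and 4 of day 15 was library 1 of day 18 (r of 0.973 for both). For libraries 1 and 2 it was library 1 of day 12 (r of 0.948 and 0.9652), an ovary that stood apart from the rest of its day (below). For library 2 of day 15, library 2 of day 18 was almost as close (r of 0.9648).

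Library 1 of day 15 also stood apart by markers of another tissue. OVGP1, the oviductal glycoprotein, was at 1397, 24.2, 28.1 and 87.5 CPM on day 15 against 65.5, 38.8 and 43.0 on day 9, and FOXJ1, the regulator of motile cilia, at 199.6, 1.97, 4.59 and 4.69 against 5.57, 8.87 and 6.18. Only library 1 was far above day 9 for these 2 genes. SPP1, a secreted phosphoprotein on the same list of oviduct and uterine epithelium markers but also made by macrophages, was at 1338, 13.7, 2759 and 3526 CPM on day 15 and 81.7, 27.0 and 26.2 on day 9, high in libraries 1, 3 and 4. The part of these cells in the results was not tested, and counts of called genes are given below also without library 1.

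Of 15638 genes tested with edgeR's quasi-likelihood test, 301 (1.92%) were called at a Benjamini-Hochberg adjusted p under 0.05, 79 higher on day 15 (0.505%) and 222 lower (1.42%). The median absolute log2 fold change was 2.57 among the higher and 1.71 among the lower genes, and the median over all genes tested was 0.14. The libraries of the days did not overlap for 75 of the 79 higher and for all 222 lower genes, where 8.59% of all genes tested lay wholly above and 12% wholly below day 9. A further group of genes missed the threshold, and 3565 genes had an unadjusted p under 0.05, 1912 higher and 1653 lower.

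The number of calls depended on single libraries. Without any 1 library of day 9, 0 genes were called higher and 1 lower, and the same held without library 1 or library 3 of day 15. Without library 4 the counts were 11 higher and 37 lower, and without library 2 they were 298 and 416. The 1 gene that remained in each of the 5 cases was ENSSSCG00000022773, which has no symbol in the table of names, with 43.3, 48.3 and 26.3 CPM on day 9 and 3.80, 5.05, 2.84 and 3.21 CPM on day 15 (log2 fold change -3.40 ± 0.43 SE, edgeR, adjusted p = 0.00433). It is named because of this and not by the rule for named genes. DESeq2 called 777 genes higher and 723 lower, and limma with voom weights 655 and 801.

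**Figure D1:**
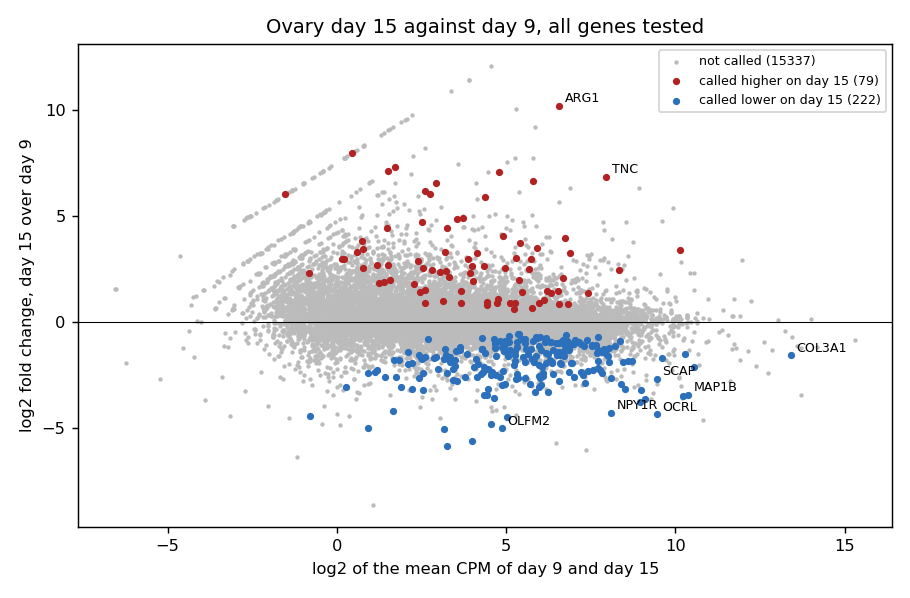
Each point is 1 of the 15638 genes tested, with the log2 of its mean CPM over the 2 days on the x axis and its log2 fold change, day 15 over day 9, on the y axis. The 222 genes called lower (blue) reach far into highly expressed genes, and the 79 called higher (red) are mostly at lower levels, while many grey genes with large fold changes were not called.

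To place the change in the cycle, a day 6 and a day 0 gene set were chosen without any library of day 9 or day 15: from a fit of days 0, 3, 6, 12 and 18, the 672 genes higher on day 6 than on day 0 and the 347 genes lower on day 6. In the day 6 set, 661 of 672 members (98.4%) had a negative log2 fold change, as did 41.3% of all genes tested. The median of the set was -0.95. Of its members, 141 (21.0%) were called lower, against 1.42% of all genes tested, and 0 higher. In every library 479 lay below day 9, as did 12% of all genes tested. In the day 0 set, 325 of 347 members (93.7%) had a positive value, as did 58.7% of all genes tested. The median of this set was 0.85. Of its members, 13 (3.75%) were called higher, against 0.505% of all genes tested, and 0 lower. In every library 97 lay above day 9, as did 8.59% of all genes tested. Day 6 set members made up 63.5% of the 222 genes called lower, and day 0 set members 16.5% of the 79 called higher.

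The mean log2(CPM + 1) over a set, minus its mean on day 9, gives each ovary a score. The day 6 score of the day 15 libraries was -1.36, -0.79, -1.44 and -1.14, a mean of -1.18 ± 0.29 (SD, n = 4), and the day 9 libraries lay between -0.05 and 0.07. All 4 ovaries were below every ovary of day 9, with library 2 nearest to day 9 and library 3 farthest. The mean was -1.43 ± 0.16 (SD, n = 3) on day 18 and -1.59 ± 0.12 (SD, n = 3) on day 0. Both sets were chosen by the difference between days 0 and 6, so the scores of those days are extreme by that choice. The day 0 score was 0.54, 0.26, 1.05 and 0.88 on day 15, a mean of 0.68 ± 0.35 (SD, n = 4), where day 9 ranged from -0.13 to 0.07, day 18 averaged 1.08 ± 0.40 (SD, n = 3) and day 0 1.48 ± 0.45 (SD, n = 3). Libraries 3 and 4 had the higher day 0 scores of day 15, and this order was not that of the follicle markers. The median log2 difference of the granulosa markers from day 9 was 1.61, 1.91, 0.46 and -0.56 in libraries 1 to 4, and that of the macrophage markers was -0.59, -0.57, 2.21 and 1.27. In library 1 of day 0, which had the highest day 0 score of all ovaries (1.79), these medians were -0.11 for granulosa and 3.26 for macrophage markers. The part of immune cells in the day 0 score was not tested. Day 12 was split, with library 1 at a day 6 score of -1.33 and the other 3 between -0.13 and 0.10.

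**Figure D2:**
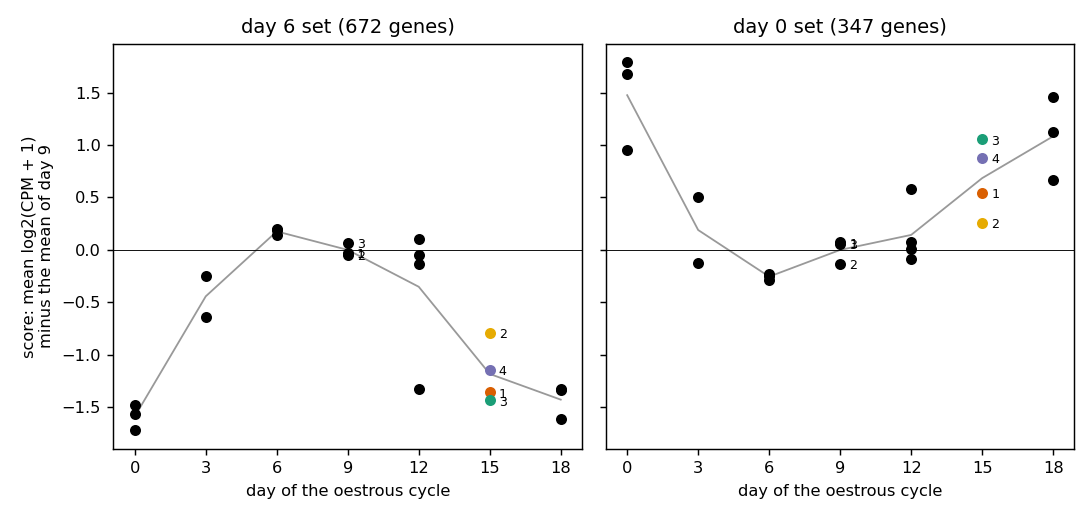
Score per ovary library on the y axis (mean log2(CPM + 1) of the set minus the day 9 mean) against the day of the cycle on the x axis, for the day 6 set of 672 genes and the day 0 set of 347 genes. Points are libraries, numbered on days 9 and 15, lines join the day means, and the 4 day 15 ovaries lie below day 9 for the day 6 set and above it for the day 0 set.

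Genes of progesterone synthesis were lower in some day 15 ovaries and near day 9 levels in others. CYP11A1, the enzyme that cuts the side chain of cholesterol as the first step of steroid synthesis, was at 4282, 4268 and 5092 CPM on day 9 and at 174, 2741, 990.4 and 3772 CPM on day 15. All 4 values were below day 9, but library 1 lay far below and library 4 close to it, and the gene was not called (log2 fold change -1.24 ± 1.06 SE, edgeR, adjusted p = 0.486). FDXR, which passes electrons to that enzyme, was at 397, 401 and 541 and 136, 391, 30.7 and 55.8 CPM (adjusted p = 0.201). NR5A2, the nuclear receptor that drives luteal steroid genes, was at 869, 839.9 and 826 CPM on day 9 and 67.9, 303, 24.4 and 45.9 CPM on day 15, below day 9 in every library (log2 fold change -2.94 ± 1.01 SE, adjusted p = 0.11).

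The receptors that respond to the pituitary behaved otherwise. LHCGR, the receptor for luteinizing hormone, was at 29.4, 26.6 and 53.1 CPM on day 9 and 34.2, 37.5, 7.76 and 31.2 CPM on day 15, and the days overlapped in all libraries but library 3 (log2 fold change -0.39 ± 0.76 SE, edgeR, adjusted p = 0.769). FSHR, the receptor for follicle-stimulating hormone on granulosa cells, varied within both days, at 0.261, 17.6 and 1.49 CPM on day 9 and 37.5, 80.1, 5.59 and 0.347 on day 15 (adjusted p = 0.435). CYP17A1, the theca enzyme on the way to androgens, was at 38.2, 51.5 and 111 CPM on day 9 and 237, 766, 12.3 and 15.3 on day 15, above day 9 in libraries 1 and 2 and below it in libraries 3 and 4 (adjusted p = 0.43). Of the 12 tested members of the luteal steroidogenesis list, 0 were called, 9 had negative values and the median log2 fold change was -0.92. In this list 6 lay wholly below day 9, as did 12% of all genes tested. Unadjusted p was under 0.05 for 3 members, DESeq2 called 0 and limma with voom 4 lower. STAR, HSD3B1, PTGFR and CYP19A1, which the list or the rule for named genes includes, are not paired with an identifier in the table of names.

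Cholesterol synthesis and uptake, the list with the most tested members, also had the most members wholly below day 9. Of 31 tested members, 27 had negative values with a median of -1.46, where 41.3% of all genes tested were negative. In every library 18 members lay below day 9, as did 12% of all genes tested, although only SCAP was called. SCAP, the sterol sensor that escorts transcription factors of sterol synthesis from the endoplasmic reticulum, fell from 996, 1000.1 and 1607 CPM to 127, 409.7, 98.6 and 129.6 CPM (log2 fold change -2.65 ± 0.56 SE, edgeR, adjusted p = 0.0269). The days did not overlap, and library 2 kept the highest level of day 15. DESeq2 called 5 members lower and limma with voom 15, and unadjusted p was under 0.05 for 12 members, all of them lower.

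For cholesterol uptake, SCARB1, the receptor for high-density lipoprotein, was at 5409, 5576 and 6841 CPM on day 9 and 231, 2365, 1257 and 3150.0 CPM on day 15 (log2 fold change -1.76 ± 0.93 SE, edgeR, adjusted p = 0.259). NPC1, which moves cholesterol out of lysosomes, was at 339, 308 and 444 and 41.0, 160.2, 85.0 and 148 CPM (adjusted p = 0.0796). Both lay below day 9 in every library, lowest in libraries 1 and 3.

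Synthesis genes near day 9 levels in some ovaries were HMGCS1 at 235, 2065, 159 and 926 CPM, against 2031, 2421 and 2751 on day 9, and MSMO1 at 77.4, 1089, 79.0 and 671 CPM, against 1246, 1669 and 1052. Here libraries 1 and 3 were low and library 2 overlapped day 9. Members with positive values included NR1H2 and NR1H3, the oxysterol receptors, with log2 fold changes of 0.20 and 0.30, and LIPA, the lysosomal lipase, with 0.11, none called by edgeR.

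**Figure D3:**
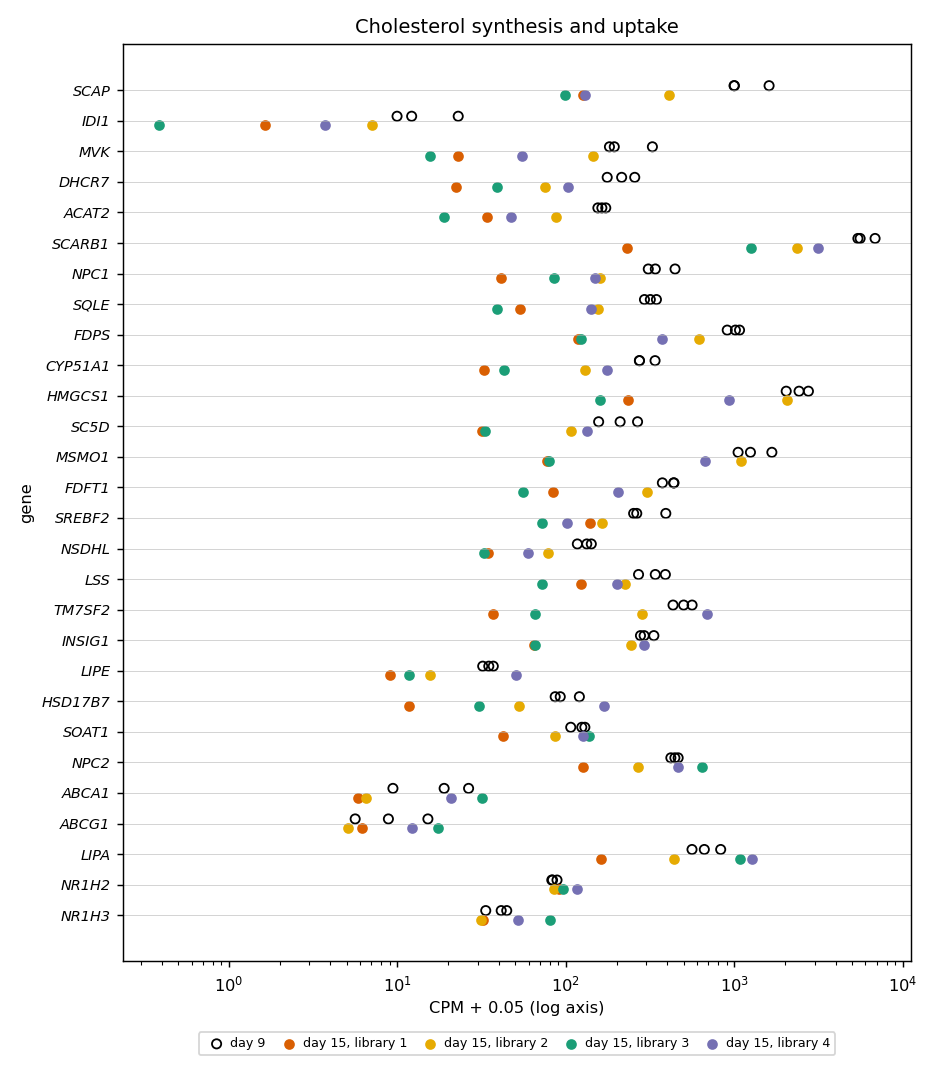
Genes of cholesterol synthesis and uptake, 28 of the 31 tested, ordered by log2 fold change, with CPM + 0.05 on a log axis, day 9 as open circles and the 4 day 15 libraries in colour. Libraries 1 and 3 hold the lowest day 15 value of 25 of the 28 genes, and SCAP, the called member, is at the top.

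The largest called falls included a pair of receptors for neuropeptide Y. NPY1R fell from 621, 663 and 289 CPM on day 9 to 14.7, 60.1, 12.8 and 22.0 CPM on day 15 (log2 fold change -4.26 ± 0.96 SE, edgeR, adjusted p = 0.0341). NPY5R, its neighbour on the chromosome, fell from 35.6, 46.7 and 10.4 to 0.633, 1.46, 0.167 and 0.260 CPM (log2 fold change -5.60 ± 1.39 SE, adjusted p = 0.0472). It had 8, 17, 2 and 3 counts on day 15, so libraries 3 and 4 were at or under the detection floor of 3 counts. The size of its fall is therefore uncertain. In both genes library 3 of day 9 was lower than the other libraries of its day.

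Other falls were from high to modest levels. OCRL, a phosphatase of inositol lipids, fell from 1431, 1389 and 1191 CPM to 44.1, 98.0, 56.6 and 68.1 CPM (log2 fold change -4.33 ± 0.84 SE, edgeR, adjusted p = 0.023). SMARCA1, an ATPase that slides nucleosomes and a near neighbour of OCRL, fell from 2048, 2365 and 2215 to 111, 296, 122 and 268 CPM (log2 fold change -3.47 ± 0.78 SE, adjusted p = 0.0332). MAP1B, a microtubule-associated protein, fell from 2456, 2156 and 2709 to 169, 342, 144 and 259.7 CPM (log2 fold change -3.42 ± 0.65 SE, adjusted p = 0.023). In all 3 the highest day 15 library was far under the lowest of day 9, and the 4 ovaries of day 15 were within a narrow range compared with the distance between the days.

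PTX3, a secreted pentraxin that stabilizes the matrix around the oocyte, fell from 985, 1173 and 864 CPM to 31.0, 233, 21.9 and 49.8 CPM (log2 fold change -3.59 ± 0.90 SE, edgeR, adjusted p = 0.0481). SNTB1, an adaptor of the dystrophin complex, fell from 952, 959.8 and 840.1 to 38.9, 187, 17.9 and 25.7 CPM (log2 fold change -3.76 ± 0.85 SE, adjusted p = 0.0332). Library 2 was the highest day 15 ovary for both. SYTL3, which binds Rab proteins on secretory vesicles, fell from 49.3, 51.5 and 37.4 to 2.29, 8.74, 2.59 and 1.74 CPM (log2 fold change -3.58 ± 0.84 SE, adjusted p = 0.0375). OLFM2, a secreted olfactomedin-domain protein, fell from 83.5, 42.3 and 44.2 to 0.475, 1.71, 1.08 and 3.82 CPM (log2 fold change -5.00 ± 1.04 SE, adjusted p = 0.026), and RHCG, an ammonia transporter, from 65.3, 45.0 and 74.5 to 0.158, 5.91, 2.50 and 2.60 CPM (log2 fold change -4.46 ± 1.07 SE, adjusted p = 0.0409). RHCG had 2 counts in library 1 of day 15, under the detection floor of 3 counts. The rule for the 10 largest falls and rises admitted only genes whose libraries do not overlap between the days.

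TNC and BMP4 were among the largest called rises. TNC, tenascin C, a glycoprotein of matrix under reconstruction, rose from 4.87, 4.19 and 3.51 CPM on day 9 to 76.2, 54.9, 1393 and 441 CPM on day 15 (log2 fold change 6.87 ± 1.53 SE, edgeR, adjusted p = 0.0331). BMP4, a growth factor of the transforming growth factor beta family, rose from 3.31, 3.95 and 2.56 to 9.33, 9.51, 171 and 34.4 CPM (log2 fold change 4.09 ± 0.99 SE, adjusted p = 0.0425). Both were above day 9 in every library, by much more in libraries 3 and 4 than in 1 and 2.

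HSPB8, a small heat shock protein of chaperone-assisted autophagy, rose from 11.5, 12.4 and 14.9 CPM to 101, 33.6, 151 and 524 CPM (log2 fold change 3.97 ± 0.91 SE, edgeR, adjusted p = 0.0346). NFATC2, a calcium-responsive transcription factor, rose from 6.09, 5.65 and 6.07 to 23.6, 15.8, 91.3 and 184 CPM (log2 fold change 3.73 ± 0.88 SE, adjusted p = 0.0388). ASB2, a substrate receptor of a ubiquitin ligase, rose from 0.348, 0.323 and 0.532 to 28.9, 6.77, 4.76 and 3.65 CPM, highest in library 1 (log2 fold change 4.76 ± 1.06 SE, adjusted p = 0.0331). ASB2 had 4, 4 and 5 counts on day 9, near the detection floor of 3 counts, so the size of its rise is uncertain.

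Other genes among the 10 largest rises, of which 4 are given, started near or at the detection floor of 3 counts, so their counts are given and their fitted fold changes are not. ARG1, arginase, an enzyme of the liver and of macrophages in repair, had 0, 5 and 0 counts on day 9 and 151, 40, 5625 and 3172 on day 15, highest in libraries 3 and 4 (edgeR, adjusted p = 0.0428). ADGRG2, an adhesion receptor known from reproductive ducts, had 1, 2 and 2 counts and 167, 13, 349 and 53 counts (adjusted p = 0.0237). TOX3, a chromatin protein, had 3, 4 and 1 and 101, 10, 116 and 33 counts (adjusted p = 0.0447), and CPA1, a carboxypeptidase, had 3, 3 and 1 and 13, 15, 63 and 56 counts (adjusted p = 0.0463). Library 2 of TOX3 and libraries 1 and 2 of CPA1 came nearest to day 9.

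**Figure D4:**
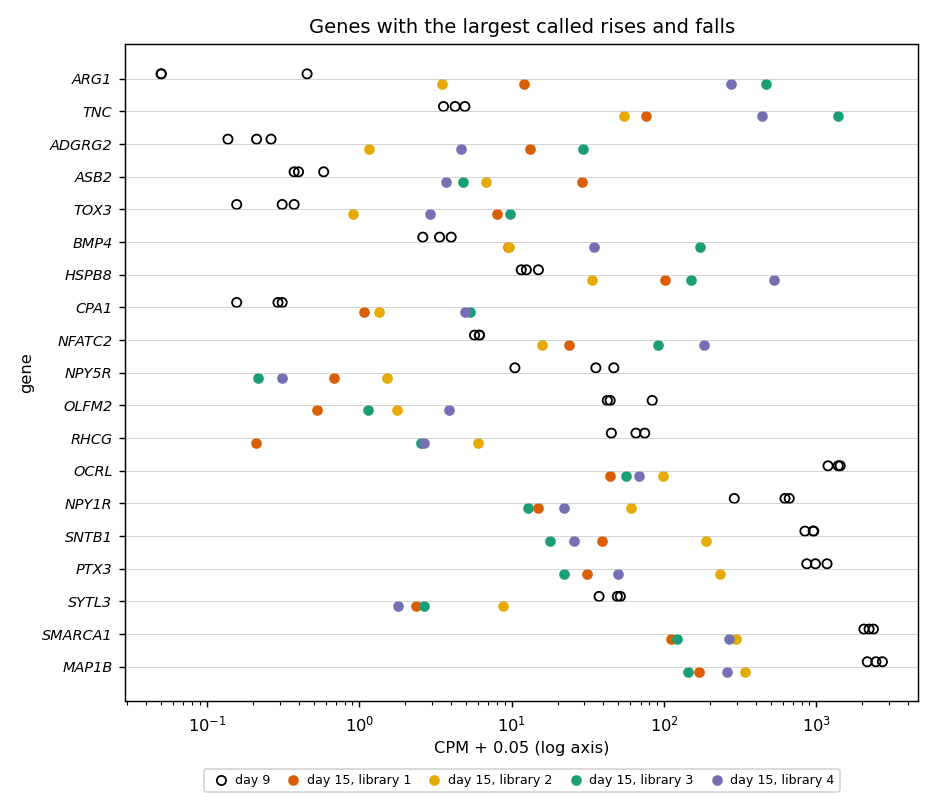
Genes of the 10 largest called rises (top, 9 shown) and the 10 largest called falls (bottom), with CPM + 0.05 on a log axis, day 9 libraries as open circles and the 4 day 15 libraries in colour. The rule admitted only genes without overlap between the days, and the day 15 points of ARG1, TNC and BMP4 are spread with libraries 3 and 4 highest.

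Without library 1 or 3 of day 15 or any library of day 9, none of the 23 called named genes kept an adjusted p under 0.05, and without library 4 of day 15 only 3 did. Among overlapping genes in the reference annotation of another assembly are VEPH1 at PTX3, GTF2A1L at LHCGR and BORCS7 at CYP17A1, and the strand setting of the counting is not given in the sources used here, so reads of such pairs may be shared.

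Among the cell type markers, 2 stromal genes fell. PDGFRA, the receptor for platelet-derived growth factor on fibroblasts, fell from 199, 147 and 241 CPM to 42.4, 42.2, 43.1 and 78.8 CPM (log2 fold change -1.92 ± 0.41 SE, edgeR, adjusted p = 0.0269). COL3A1, the chain of fibrillar collagen III, fell from 16351, 11396 and 20750.1 CPM to 8704, 6652, 3901 and 2954 CPM (log2 fold change -1.54 ± 0.37 SE, adjusted p = 0.0423). Neither overlapped between the days. These were 2 of the 7 tested members of the fibroblast and stroma list, and the list as a whole did not share their direction: 5 members had positive values and the median was 0.31. COL1A2, the partner chain of collagen I, was at 1709, 1134 and 1751 CPM on day 9 and 3393, 1840.5, 933 and 360.4 on day 15 (adjusted p = 0.943), high in library 1 and low in library 4.

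Macrophage markers separated the day 15 ovaries from each other rather than from day 9. Of 15 tested members, 0 were called, 13 had positive values and the median log2 fold change was 1.19. Only 1 lay wholly above day 9, where 8.59% of all genes tested did. All 15 were higher in both of libraries 3 and 4 than in either of libraries 1 and 2, an order found for 30.8% of all genes tested. The median log2 difference from day 9 was -0.59 and -0.57 in libraries 1 and 2 and 2.21 and 1.27 in libraries 3 and 4. LYZ, lysozyme, was at 18.9, 9.03 and 7.56 CPM on day 9 and 93.3, 9.85, 3259.9 and 503 on day 15 (edgeR, adjusted p = 0.108). TYROBP, an adaptor of myeloid receptors, was at 20.9, 12.9 and 29.8 and 13.1, 12.8, 127 and 48.5 CPM (adjusted p = 0.385). In libraries 1 and 2 both were near day 9, apart from LYZ in library 1.

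Neutrophil markers showed the same division for 2 of 3 genes. S100A8, a calcium-binding protein of neutrophils, was at 0.348, 0.0807 and 0.639 CPM on day 9 and 3.16, 1.80, 284 and 17.9 on day 15 (edgeR, adjusted p = 0.0821). CSF3R, the receptor of their growth factor, was at 2.87, 0.887 and 0.745 and 2.93, 0.428, 87.0 and 36.3 CPM (adjusted p = 0.149). LTF, lactoferrin, which epithelia also make, was high in library 1 alone, at 117, 1.20, 2.25 and 1.30 CPM. Of 11 T and NK cell markers, 0 were called, the median was 0.50, and 6 were higher in libraries 3 and 4 than in 1 and 2. The 3 B and plasma cell markers and the 2 red blood cell markers had medians of 0.30 and -0.18, and 0 were called.

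Follicle cell markers had the opposite order among the day 15 ovaries. Of 8 granulosa and 7 theca markers, 0 were called, with median log2 fold changes of 1.69 and 1.94, and 6 of each list were higher in both of libraries 1 and 2 than in either of 3 and 4, an order that 32.0% of all genes tested had. INHA, the alpha subunit of inhibin from granulosa cells, was at 266, 391 and 202 CPM on day 9 and 794, 853, 71.9 and 37.4 CPM on day 15 (edgeR, adjusted p = 0.81). INSL3, the relaxin-like hormone of theca cells, was at 3.66, 15.7 and 8.62 and 189, 289.8, 15.1 and 0.0868 CPM (adjusted p = 0.285). Libraries 1 and 2 were above day 9 for both genes, and libraries 3 and 4 were below it for INHA. GJA1, the gap junction protein of granulosa and other cells, was above day 9 in all 4 ovaries, at 1012, 1641, 1186 and 1361 CPM against 484, 528 and 287 (log2 fold change 1.58 ± 0.52 SE, adjusted p = 0.0977). The 7 oocyte markers had a median of 1.21 with 0 called.

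Proliferation genes had the same order among the day 15 ovaries as the follicle markers. All 15 tested had positive log2 fold changes, with a median of 0.80, 0 were called, and 0 had an unadjusted p under 0.05. Wholly above day 9 lay 0 of them, where 8.59% of all genes tested did. All 15 were higher in libraries 1 and 2 than in 3 and 4, and library 4 held the lowest value of each. The median difference from day 9 was 1.44, 1.61, -0.25 and -1.73 in libraries 1 to 4. TOP2A, the topoisomerase of dividing cells, was at 69.0, 141 and 78.5 CPM on day 9 and 292, 325, 57.8 and 10.6 CPM on day 15 (edgeR, adjusted p = 0.607).

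Smooth muscle genes had a median log2 difference from day 9 of 3.93, 2.86, 1.09 and -0.06 in libraries 1 to 4. Library 1 held the highest day 15 value of 6 of the 7 tested. Higher in both of libraries 1 and 2 than in either of 3 and 4 were 6, as were 32.0% of all genes tested. Library 1 also held the oviductal markers OVGP1 and FOXJ1, which were not raised in library 2, and a link was not tested. Of 7 tested, 6 had positive values with a median of 2.84, and 3 lay wholly above day 9, as did 8.59% of all genes tested. EdgeR called 0, although all 7 had an unadjusted p under 0.05 and DESeq2 called 5 higher and 1 lower. DES, desmin, was at 55.8, 52.0 and 57.1 CPM on day 9 and 4251, 1629.6, 118 and 32.6 CPM on day 15 (edgeR, adjusted p = 0.0742). ACTA2, smooth muscle actin, was at 448, 525 and 378 and 5037, 2141, 1223 and 806 CPM (adjusted p = 0.111). The member with a negative value was PDGFRB, the pericyte receptor, at 118, 84.4 and 191 CPM on day 9 and 39.2, 43.3, 50.4 and 82.9 CPM on day 15, below day 9 in every ovary (log2 fold change -1.28 ± 0.33 SE, adjusted p = 0.0564).

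Of 9 endothelial markers, 8 had negative values with a median log2 fold change of -0.48, and 2 lay wholly below day 9, where 12% of all genes did. Over the list, the median difference from day 9 was -1.20, -0.76, -0.83 and 0.11 in libraries 1 to 4. The markers had 0 calls by edgeR, 4 had an unadjusted p under 0.05, and DESeq2 and limma with voom each called 2 lower. KDR, the main receptor for vascular endothelial growth factor, was at 401, 311 and 480.1 CPM on day 9 and 104, 148, 129 and 322 CPM on day 15, with library 4 within the day 9 range (edgeR, adjusted p = 0.098). ESAM, an endothelial adhesion molecule, was at 24.3, 16.5 and 30.8 and 9.49, 12.3, 5.51 and 14.0 CPM (log2 fold change -1.21 ± 0.33 SE, adjusted p = 0.0649). Library 4 held the highest value of day 15 for all 9 markers. Of the 24 genes of angiogenesis and vascular tone, edgeR called 0, DESeq2 called 2 higher and 3 lower and limma with voom 1 and 3, unadjusted p was under 0.05 for 6, and the median was -0.20. EDNRB, an endothelin receptor, was at 135, 128 and 94.4 CPM on day 9 and 12.3, 36.3, 29.0 and 28.6 CPM on day 15 (adjusted p = 0.0942), and ACE, which makes angiotensin, at 168, 145 and 302 and 67.2, 114, 36.5 and 56.0 CPM (adjusted p = 0.0658), both below day 9 in every library.

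**Figure D5:**
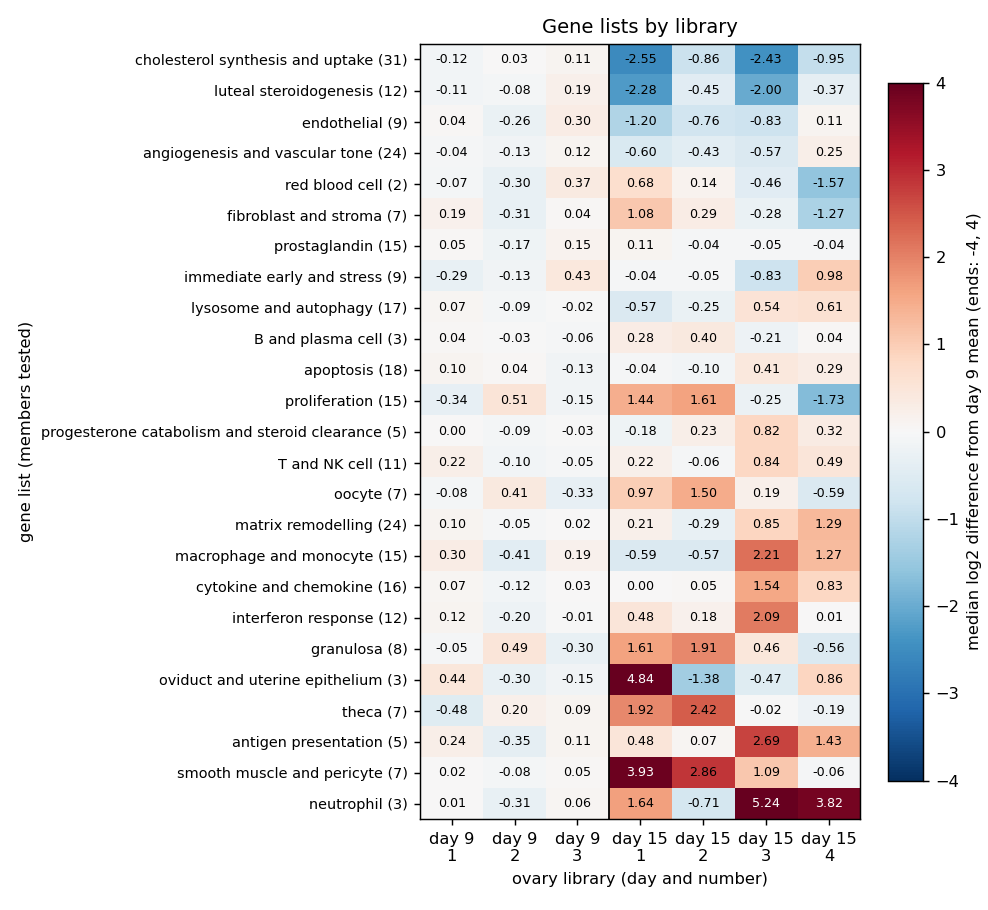
For each gene list (rows, with the number of members tested), the median over its members of the log2 difference from the day 9 mean, in the 3 day 9 and the 4 day 15 libraries (columns), coloured from blue (lower) to red (higher). Cholesterol and luteal lists are negative in all 4 day 15 ovaries, while the macrophage, neutrophil, antigen presentation, cytokine and matrix lists are highest in libraries 3 and 4, the interferon list in library 3, and the granulosa, theca and proliferation lists in libraries 1 and 2.

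In the matrix remodelling list, TNC was the 1 member of 24 called by edgeR, the median was 0.73, and 17 had positive values. DESeq2 called 5 members higher and 1 lower, and limma with voom 2 and 1. Of the 24, 16 were higher in both of libraries 3 and 4 than in 1 and 2. MMP1, the interstitial collagenase, was at 0.783, 0.565 and 0.106 CPM on day 9 and 7.04, 0.257, 274 and 157 CPM on day 15 (edgeR, adjusted p = 0.0587). THBS1, thrombospondin, an inhibitor of vessel growth that activates transforming growth factor beta, was at 1128, 904 and 736 and 2194, 826, 12893 and 12640.4 CPM (log2 fold change 2.95 ± 0.95 SE, adjusted p = 0.0942). In both genes library 2 was within or below the day 9 range. TIMP1, the inhibitor of matrix proteases, lay below day 9 in every library, at 727, 5389, 10075 and 16078 CPM against 17044, 19633 and 18973, with library 1 far lower than library 4 (adjusted p = 0.521). VCAN, versican, was at 1327, 1552 and 1525 and 452, 692, 529 and 324 CPM (adjusted p = 0.0621), below day 9 in every ovary.

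Of 16 cytokine and chemokine genes, 0 were called by edgeR, 7 had an unadjusted p under 0.05 and DESeq2 called 5, with a median of 1.48. TGFB1, a transforming growth factor, was at 48.0, 39.8 and 67.3 CPM on day 9 and 81.2, 43.9, 555 and 1022 CPM on day 15 (log2 fold change 3.04 ± 0.93 SE, edgeR, adjusted p = 0.0821). CCL2, the chemokine that attracts monocytes, was at 32.7, 25.7 and 40.8 and 21.2, 15.6, 833 and 326 CPM (adjusted p = 0.154). Both were highest in libraries 3 and 4. IL18, an inflammasome cytokine, was above day 9 in all 4 ovaries, at 10.6, 8.31, 26.9 and 43.0 CPM against 6.79, 6.53 and 4.26 (adjusted p = 0.0867). The 12 interferon response genes had a median of 1.11 and 0 calls, and library 3 held the highest day 15 value of all 12. The 5 antigen presentation genes had a median of 1.59 and 0 calls, and 4 were higher in libraries 3 and 4 than in 1 and 2.

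Of 15 prostaglandin genes, 0 were called, 6 had an unadjusted p under 0.05 and the median was 0.61. PTGES, which makes prostaglandin E, was at 957, 925 and 1617 CPM on day 9 and 89.5, 311, 35.1 and 35.7 CPM on day 15, below day 9 in every ovary and lowest in libraries 3 and 4 (log2 fold change -3.31 ± 0.89 SE, edgeR, adjusted p = 0.0636). DESeq2 called 1 member of this list, in the lower direction. PTGS2, the inducible cyclooxygenase that starts prostaglandin synthesis, was at 3.39, 2.98 and 3.30 and 6.80, 2.91, 19.8 and 23.3 CPM (adjusted p = 0.228), high in libraries 3 and 4. SLCO2A1, the prostaglandin transporter, lay below day 9 in every library, at 12.9, 13.3, 16.8 and 36.0 CPM against 46.7, 44.5 and 61.0 (adjusted p = 0.161).

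Of the 5 genes of progesterone catabolism and steroid clearance, edgeR called 0, with a median of 0.90. Unadjusted p was under 0.05 for 3 of them, all higher, and DESeq2 called 3 higher and limma with voom 1. SRD5A1, a reductase of progesterone and testosterone, was at 42.1, 38.3 and 38.9 CPM on day 9 and 32.3, 28.9, 123 and 899 CPM on day 15, above day 9 in libraries 3 and 4 only (edgeR, adjusted p = 0.152). HSD11B1, which regenerates active glucocorticoid, was above day 9 in all 4 ovaries, at 52.2, 31.4, 34.0 and 23.7 CPM against 18.9, 20.9 and 16.9 (log2 fold change 0.90 ± 0.30 SE, adjusted p = 0.105).

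Apoptosis genes had values on both sides of 0. Of 18 tested, 0 were called, 5 had an unadjusted p under 0.05 (3 higher and 2 lower), and the median was 0.35. FAS, the death receptor, was at 14.4, 12.7 and 8.94 CPM on day 9 and 8.30, 10.4, 74.1 and 195 CPM on day 15, above day 9 in libraries 3 and 4 only (edgeR, adjusted p = 0.143). XIAP, an inhibitor of caspases, lay below day 9 in every ovary, at 25.9, 29.4, 45.9 and 50.0 CPM against 116, 108 and 82.2 (log2 fold change -1.43 ± 0.42 SE, adjusted p = 0.0747). Of 17 lysosome and autophagy genes, 0 were called, the median was 0.22, and 14 were higher in libraries 3 and 4 than in 1 and 2. CTSL, the lysosomal protease cathepsin L, was above day 9 in all 4 ovaries, at 163, 104, 1336 and 474 CPM against 35.5, 41.9 and 25.1 (log2 fold change 3.92 ± 1.05 SE, adjusted p = 0.0621). The 9 immediate early and stress genes had a median of 0.36 and 0 calls, and ATF3, a stress-induced transcription factor, was at 75.1, 87.0, 34.8 and 226 CPM against 22.4, 20.6 and 25.2 on day 9 (adjusted p = 0.101), above day 9 in every ovary and highest in library 4.

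The calls counted over the lists are those of edgeR, and other tools called more members of some lists. DESeq2 called 1 macrophage, 2 neutrophil, 1 granulosa and 1 theca marker, 1 lysosome and autophagy gene and 1 immediate early gene, all higher, and 1 apoptosis gene in each direction. Limma with voom called 1 granulosa and 2 theca markers, 1 lysosome and autophagy gene and 1 immediate early gene higher and 1 apoptosis gene lower. Neither tool called a member of the T and NK cell, B and plasma cell, red blood cell, oocyte, proliferation, interferon or antigen presentation lists, where edgeR's unadjusted p was under 0.05 for 1 interferon and 1 antigen presentation gene.

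The division of the day 15 ovaries into 2 pairs extended beyond these lists. For 348 genes (2.23% of those tested), a gap of at least 2 log2 units separated the upper 2 from the lower 2 of the day 15 libraries. Libraries 3 and 4 were the upper pair for 203 of them (58.3%) and libraries 1 and 2 for 122 (35.1%), and the other pairs shared the rest. The genes named here were chosen for the width of this gap, after their values were seen, and no test applies. SERPINB2, an inhibitor of plasminogen activators, had the widest gap, with 2.70, 3.15 and 2.77 CPM on day 9 and 3.08, 0.257, 582 and 343 CPM on day 15. VDR, the vitamin D receptor, was at 18.5, 11.0 and 22.0 CPM on day 9 and 6.64, 4.54, 199 and 187 on day 15, and HAS2, which makes hyaluronan, at 0.696, 1.29 and 3.94 and 5.38, 1.28, 140.3 and 105. In the other direction, IHH, a hedgehog ligand of granulosa cells, was at 2.26, 87.4 and 14.2 CPM on day 9 and 285, 190.0, 1.33 and 6.77 CPM on day 15, and CHGA, chromogranin A, at 13.1, 96.1 and 19.1 and 226, 262, 15.2 and 1.39. Libraries 3 and 4 were within or below the day 9 range for IHH and CHGA.

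Day 15 was then set against its neighbouring days in the same edgeR model. Against day 12, 4 genes (0.0256%) were called, 3 higher (0.0192%) and 1 lower (0.00639%), and 3344 had an unadjusted p under 0.05. Being so few, they are named outside the rule. NRAP, a scaffold protein of muscle, was lower (log2 fold change -1.44, edgeR, adjusted p = 0.0392). MICAL1, which oxidizes actin, was higher (1.44, adjusted p = 0.0392). ENSSSCG00000015318 (1.37) and ENSSSCG00000027499, both without a symbol, were also higher, with the same adjusted p. ENSSSCG00000027499 was at 0.078, 0.105, 0.205 and 0.206 CPM on day 12, under the detection floor of 3 counts in every library. On day 15 it was at 4.35, 2.91, 2.67 and 1.13 CPM, and its fitted fold change is not given. Without library 1 of day 12, the count against day 12 was 2741. Against day 18, 0 genes were called by edgeR and 870 had an unadjusted p under 0.05, while DESeq2 called 16 and limma with voom 1.

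Days 12 and 18 against day 9 share the day 9 libraries with the comparison of day 15, so their values are only set side by side. Day 12 gave 0 calls with edgeR (527 genes with an unadjusted p under 0.05, and 1 call with DESeq2 and 712 with limma and voom), and day 18 gave 672 (4.3%), 207 higher (1.32%) and 465 lower (2.97%). For the 79 genes called higher on day 15, the median log2 fold change against day 9 was 0.49 on day 12 and 2.08 on day 18. For the 222 called lower it was -0.48 on day 12 and -1.70 on day 18. Without library 1 of day 12, which changes the filter (15582 genes tested) and the shared estimate of spread, the counts of day 15 against day 9 were 469 higher and 783 lower.

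Finally, the change between the same 2 days was compared with that in the endometrium and the oviduct, in 1 model over the 3 tissues. In that model, which estimates the spread over all 66 libraries, 2703 of 16934 genes (16%) were called in the ovary, 2403 (14.2%) in the endometrium and 7 (0.0413%) in the oviduct. The model of the ovary alone called 301 genes (1.92%) between the same days. The shared spread may be too small for the ovary of day 15, which would make the p-values below too small, and this was not tested. The difference of the changes was called for 2086 genes (12.3%) between ovary and endometrium and for 462 (2.73%) between ovary and oviduct. The difference from the endometrium was called for 155 of the 222 genes that the model of the ovary alone called lower. That from the oviduct was called for 98 of them. For the 79 genes called higher these counts were 39 and 43. The same ovary libraries selected these genes and entered the difference, so high counts are built in and serve as a description only. In the endometrium itself, 20 of the 222 were called lower and 15 higher, and 18 of the 79 were called higher and 5 lower. In the oviduct 1 gene of each group was called, in the direction of the ovary. Without library 1, 2 or 3 of day 9 of the ovary, the count of 462 against the oviduct became 183, 195 and 183. Without library 2 of day 15 it was 1150.

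Of the 29 named genes, the difference was called for 17 against the endometrium and for 15 against the oviduct, beside the 12.3% and 2.73% of all genes above. Most of the 29 were named for their change in the ovary, so these counts are a description. OLFM2 and RHCG are given in full as the named genes that were also called in the endometrium, a choice made after the values were seen. OLFM2 had opposite changes in the ovary and the endometrium. Its log2 fold change was -4.99 in the ovary and 4.29 in the endometrium (adjusted p = 0.0377 for the latter), a difference of -9.29 ± 1.53 SE (edgeR, adjusted p = 4.86e-05). RHCG fell in the ovary and in the endometrium, with -4.46 and -5.49 (adjusted p = 0.000588), and the difference of 1.03 ± 1.44 SE did not pass the threshold (adjusted p = 0.699).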

How the data were processed

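RNA was sequenced from whole ovaries with a poly-A library kit and paired-end reads. The authors trimmed the first 13 bases, mapped reads with TopHat2 2.0.13 to Sus scrofa 10.2 with Ensembl 78 and deposited raw counts for each gene and library in 1 table, neither normalized nor pooled. The submitters' processing notes list FastQC, featureCounts, Cufflinks, Cuffdiff and edgeR. Version and strand setting of the counting are not given in the sources used here. The study's own tests used FPKM, which were not used here. Libraries were assigned to tissue and day by the column names, and the numbers are those of the columns, which are not tied to the numbers in the labels. Of 25322 identifiers, 11804 were paired with a symbol through a table of gene names, and 295 of 435 listed symbols matched, 273 of them tested. The 4541 genes without a count in any ovary library and others with low counts were removed by filterByExpr. No DNA or protein sequences were used.

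All 22 ovary libraries were fitted with day as a factor in edgeR 4.0.16 (TMM, robust glmQLFit, glmQLFTest, R 4.3.3), with Benjamini-Hochberg adjustment over the 15638 genes tested and a threshold of 0.05. The SE of a log2 fold change was taken as its size over the square root of F. At these depths 3 counts equal 0.232 to 0.291 CPM before TMM scaling. Without molecular identifiers, this floor covers counting error only. No library pair was identical, and chi-square per degree of freedom was at least 10.8. In counts simulated for this comparison over 15337 genes, 6 of 67 genes with 2-fold, 43 of 67 with 4-fold and 56 of 66 with 8-fold changes were recovered, with 2 false calls. The simulation gave a gene the same spread on every day, whereas the data varied more on day 15 than on day 9. Set scores used log2(CPM + 1). Alternatives were DESeq2 1.42.0 (size factors, and its Wald test), limma 3.58.1 with voom and sample quality weights, no filter, the 2 days alone, a block and leaving out each library. Figures used matplotlib 3.10.9.

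Members, lists and tests were chosen with earlier results of these data known. Named genes are CYP11A1, LHCGR, CYP17A1, FSHR, SCARB1 and others, the 2 called members per list and direction with the largest changes, and the 10 largest called rises and falls among genes with a symbol, no overlap between the days and 10 or more counts in every library of the day with the higher level. Some genes that the rule or the lists include are not reported here, although the counts hold them. Other genes are examples from the lists, with their values and adjusted p-values.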

Additional observations from a re-analysis of the deposited data

Results flagged for a closer look

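Among 37 groups of 4 libraries examined, single libraries stood far from the other 3 in 3 cases, where chance gives about 1 in 20. LHCGR was at 7.76 CPM in library 3 of day 15, the lowest of its day, and PDGFRA at 78.8 CPM in library 4, the highest of its day and still below every day 9 library. The day 6 set score of library 1 of day 12 was -1.33, far below the other 3 ovaries of that day.

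The change between days 9 and 15 differed between the ovary and another tissue by an interaction test in edgeR for 2086 genes against the endometrium and for 462 against the oviduct. Of the 29 named genes, 17 had a called difference from the endometrium and 15 from the oviduct, and most were named for their change in the ovary. Ovary minus endometrium, on the log2 scale, the difference was -9.29 for OLFM2, -5.10 for NPY1R, -3.94 for OCRL, -3.94 for MAP1B, -3.79 for SMARCA1, -3.77 for SNTB1, -2.996 for PDGFRA, -2.25 for COL3A1 and -1.91 for SCAP, and it was 8.19 for TNC, 3.36 for NFATC2, 3.35 for HSPB8 and 3.26 for BMP4. Ovary minus oviduct it was -3.33 for OCRL, -2.75 for MAP1B, -2.51 for PDGFRA, -2.48 for SMARCA1, -2.20 for COL3A1 and -2.19 for SCAP, and 6.07 for TNC, 4.80 for BMP4, 3.99 for NFATC2, 3.85 for ASB2 and 3.53 for HSPB8. For ADGRG2, CPA1 and TOX3, which were near the detection floor in the ovary on day 9, the fitted differences depend on the prior count: 4.97, 4.93 and 2.93 against the endometrium and 5.52, 5.49 and 4.56 against the oviduct. ASB2 was also near this floor on day 9, so the size of its difference from the oviduct is uncertain as well. Of these genes OLFM2 was the one that also passed the threshold in the other tissue, the endometrium. By the study's account all tissues of a day came from 3 gilts, so libraries of different tissues share gilts. The labels do not tie them together, so the model ignores this pairing and treats them as independent. Its spread, shared by the tissues, may be too small for the ovary of day 15.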

How the results depend on the processing

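Counts of day 15 against day 9 were 79 higher and 222 lower. They became 777 and 723 with the DESeq2 Wald test (51.8% higher, against 26.2%) and 655 and 801 with limma and voom (45.0% higher). No filter gave 49 higher, and the 2 days alone 37 higher. Leaving out 1 ovary library gave 0 to 469 higher and 1 to 783 lower, both highest without library 1 of day 12. Day 6 set members called lower were 141, but 314 with DESeq2, 347 with limma and voom, 86 with the 2 days alone and 1 to 340 without 1 library. Day 0 set members called higher were 13, but 81, 55, 7 and 0 to 52 in the same order, and 8 without a filter. Choosing the sets on days 0 and 6 alone gave 39 day 0 set calls. Keeping set members that differed by 2 or more log2 units in either direction, chosen after seeing the data, gave medians of -1.86 and 1.31 with 69 and 4 calls. Day 12 against day 9 had 1 call with DESeq2 and 712 with limma and voom, and 0 to 2 without 1 library. Day 18 against day 9 had 370 without a filter, 2321 with DESeq2, 6830 with limma and voom and 0 to 2092 without 1 library. Day 15 against day 12 had 0 without a filter and with the 2 days alone, 1375 with DESeq2, 1800 with limma and voom and 0 to 2741 without 1 library. Day 15 against day 18 had 16 with DESeq2 and 1 with limma and voom. The difference from the endometrium was called for 710 genes and that from the oviduct for 47 with only days 9 and 15 of the 2 tissues, and the latter for 183 to 1150 without 1 library. The causes of these shifts were not tested.

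The replicate numbers of the labels could not serve as a block, since the columns carry other numbers. With the column number as a block, a choice made after seeing the data, 111 genes were called higher and 392 lower, and 0 between days 15 and 12. Same-numbered libraries of days 9 and 15 deviated together with r of -0.18, 0.19 and -0.01, and differently numbered ones with r of -0.27 to 0.25. The matched values lie within that range, so this check cannot tell whether the numbers pair the samples. Under this block 5 of the 23 named calls were lost, 14 with the 2 days alone, 7 without a filter, 1 each with DESeq2's size factors and limma with voom and 0 with the DESeq2 Wald test. In the simulation 2-fold changes were mostly missed, so a change of that size may have gone undetected here. The simulation gave a gene the same spread on every day. In the data the SD was above 1 for 0.595% of genes on day 9 and 14.5% on day 15. Recovery and false calls in this comparison may therefore differ from the simulated ones.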
